A study of Homo sapiens with 6 samples.

Results

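The Hippo kinase core was followed here as 10 genes picked by name: the kinases STK3, STK4, LATS1, LATS2 and TAOK1, and the adaptors SAV1, MOB1A, MOB1B, NF2 and WWC1. Each was a row of the count table under its Entrez gene ID, so the 10 genes were 10 of 23459 rows. All 10 passed the low-count filter and were among the 12510 genes tested.

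The Hippo pathway is a kinase cascade that restrains the transcriptional coactivators YAP and TAZ. TAOK1 can activate STK3 and STK4, which phosphorylate LATS1 and LATS2 with the help of SAV1 and of the MOB1 proteins, and NF2 and WWC1 bring LATS kinases to the plasma membrane. Active LATS kinases phosphorylate YAP and TAZ, which are then held in the cytoplasm or degraded. In epithelial cells the cascade is known for responding to cell density, polarity and mechanical tension, and some of its members are themselves known targets of YAP and TAZ. The comparison asked how the RNA level of the upstream cascade stood after its downstream effectors had been depleted.

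All libraries came from MCF10A, an untransformed human mammary epithelial cell line, and the labels mark all 6 as WT (wild type). Cells had been transfected with 20 nM of a non-targeting control siRNA (siCtrl, 3 libraries) or with siRNA against YAP and TAZ (siYAP/TAZ, 3 libraries), and TAZ is encoded by WWTR1. Reads were taken from the 3′ end of polyadenylated RNA, so levels were not divided by transcript length. The labels do not say whether replicates were separate cultures, so p-values measure the spread between these libraries, which may be technical, and all of them come from a single cell line. In bulk RNA, fewer cells expressing a gene and less RNA per cell cannot be told apart.

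The labels disagree for 2 libraries. Groups and replicate numbers follow the description field, but by title and genotype entry siCtrl replicate 2 would be a siYAP/TAZ library, while siYAP/TAZ replicate 2 would be a control. The targeted genes followed the descriptions: YAP1 lay at 189 to 210 CPM (counts adjusted for library size with TMM) in siCtrl and 112 to 118 CPM under siYAP/TAZ, and WWTR1 at 102 to 109 CPM against 59.8 to 70.5 CPM. The fitted levels were 57.5% of siCtrl for YAP1 and 61.9% for WWTR1, so depletion at the RNA level was partial. The YAP/TAZ target genes CCN1 (27.2 to 53.1 CPM against 3.64 to 10.1 CPM), CCN2 (23 to 55 counts against 0 to 6 counts, where a count of 0 allows up to 3) and AMOTL2 (32.4 to 41.0 CPM against 8.43 to 13.9 CPM) were lower in every siYAP/TAZ library. Library totals were 3175149 to 4317286 counts. The siCtrl replicate 2 library stood apart from the other siCtrl libraries (Spearman correlation over genes 0.946 and 0.959, against 0.981 between replicates 1 and 3). Its correlations with the siYAP/TAZ libraries were 0.958, 0.966 and 0.958, so it lay nearest to siYAP/TAZ replicate 2 and nearer to each depleted library than to siCtrl replicate 1. The summed level of 8 mammary epithelial markers was 1891 to 2287 CPM under siCtrl and 1528 to 1713 CPM under siYAP/TAZ. The sum of 6 markers of other cell types was 6.89 to 12.7 CPM and 9.97 to 16.9 CPM, with the endothelial marker PECAM1 at 1.01 to 1.72 CPM and 3.17 to 9.59 CPM, PDGFRB at no more than 0.754 CPM and the hepatocyte marker ALB at 0 in 5 libraries. Over all libraries ESR1 lay at 2.872 to 5.555 CPM, COL1A1 at 0.992 to 3.26 CPM and PTPRC at 0.453 to 3.09 CPM. None of the 8 epithelial markers passed the edgeR threshold described below (0 lower and 0 higher), where 1.22% of tested genes were lower and 0.743% higher. At an unadjusted p under 0.05, 2 were lower and 1 higher, against 9.27% and 8.4% of tested genes. With the replicate number as a term of the model, KRT5 (adjusted p = 0.0230), LAMB3 (0.00962) and EPCAM (0.0364) were called lower. TP63 (0.0379) and PECAM1 (0.0245) were called higher in that fit, which called 5.44% of tested genes lower and 4.66% higher. DESeq2 called KRT5 (0.0386) and LAMB3 (0.0276) lower and PECAM1 (0.0408) higher, against 2.47% and 1.88% of its genes. The part of these shifts in the values below was not tested.

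WWC1 was the gene of the core that fell past the threshold after YAP/TAZ depletion, to 46.3% of its control level. The other 9 genes did not pass, and their fitted changes ran from a log2 fold change of -0.42 for STK3 to 0.13 for MOB1A. By the quasi-likelihood test of edgeR (Benjamini-Hochberg, all tested genes), 1 of 10 members was lower at an adjusted p under 0.05, where 1.22% of the 12510 tested genes were lower. No member (0 of 10) was higher, where 0.743% of tested genes were higher. After blocking on the replicate number the counts of members were again 1 lower and 0 higher, against 5.44% and 4.66% of tested genes. DESeq2 also called 1 member lower and 0 higher, against 2.47% and 1.88% of the 13301 genes to which it gave an adjusted p.

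Most of the other fitted values lay below 0 without passing. The fitted change was below 0 for 8 of 10 members, where 50.1% of tested genes were below 0. The median log2 fold change was -0.25 over the members and -0.00093 over all tested genes. At an unadjusted p under 0.05, 2 members were lower (WWC1 and STK3) against 9.27% of tested genes, and 0 were higher against 8.4%. For 4 members (STK3, STK4, LATS1 and WWC1) every siYAP/TAZ library lay below every siCtrl library, as it did for 11.1% of tested genes, and for 0 members the reverse held, as it did for 11% of tested genes. The members were measured with a median standard error of 0.16 on the log2 scale, smaller than the 0.22 over all tested genes. Summed over the 10 genes, the core held 780 ± 54.8 CPM under siCtrl and 645 ± 24.96 CPM under siYAP/TAZ (mean ± SD, n = 3 each), and without WWC1 it held 643 ± 34.1 CPM and 581 ± 21.3 CPM. The libraries of the 2 groups did not overlap in either sum (726 to 835 CPM against 621 to 670 CPM for all 10, and 609 to 677 CPM against 556 to 594 CPM without WWC1). How often sums of other tested genes separate in this way was not computed. Both sums include STK3, STK4 and LATS1, already counted above, so they add no separate result.

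**Figure D1:**
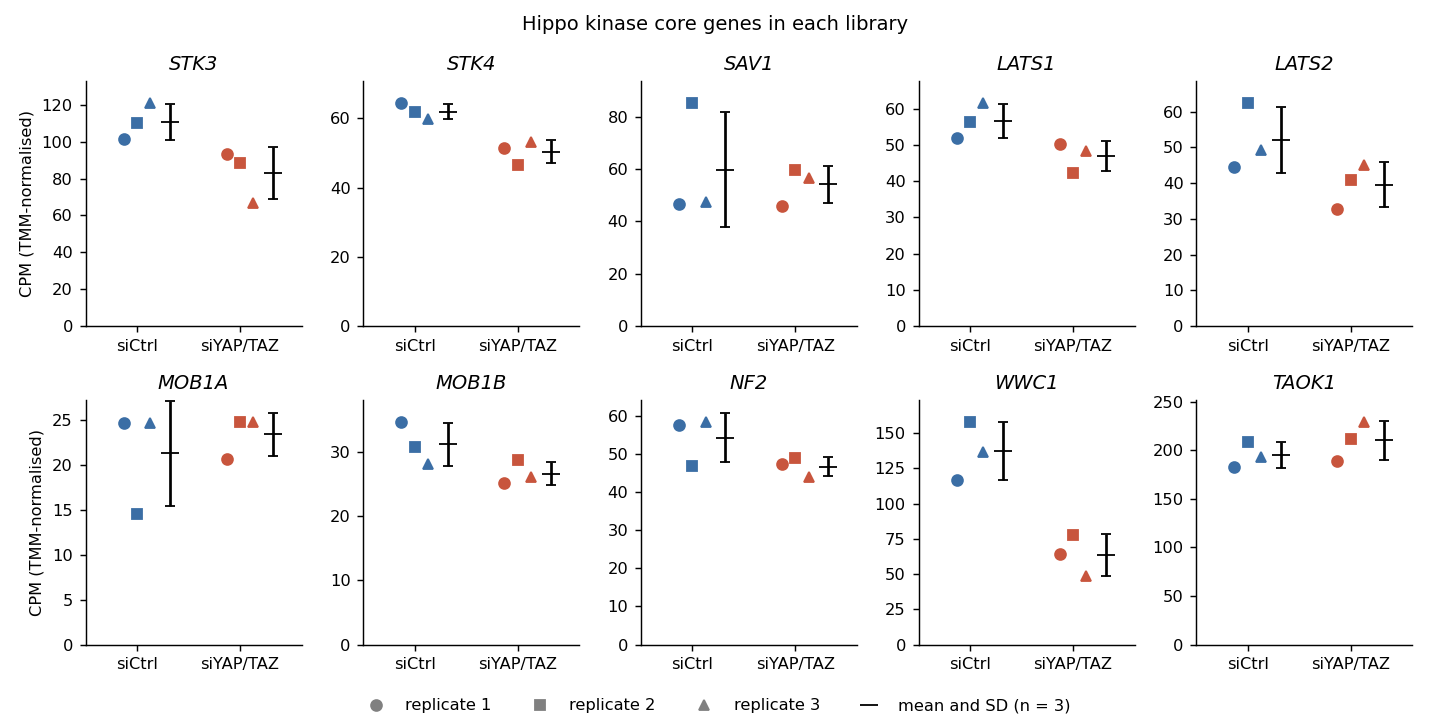
Level of each Hippo kinase core gene in each library, in TMM-normalised CPM from 0, with siCtrl in blue and siYAP/TAZ in red, the marker shape giving the replicate and the bar the mean and SD (n = 3). WWC1 was at 117 to 158 CPM under siCtrl and 48.4 to 78.0 CPM under siYAP/TAZ, while SAV1 and MOB1A showed the wide siCtrl spread set by replicate 2.

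In control cells TAOK1 was the most abundant of the 10 transcripts by CPM. It lay at 183 to 209 CPM, above every other member in every siCtrl library. WWC1 (117 to 158 CPM) and STK3 (101 to 121 CPM) came next and overlapped each other. SAV1, STK4, LATS1, NF2 and LATS2 formed a run of overlapping neighbours between 44.5 and 85.2 CPM. MOB1B (28.1 to 34.8 CPM) and MOB1A (14.5 to 24.7 CPM) were lowest and did not overlap.

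WWC1 (Entrez 23286), also known as KIBRA, is a scaffold with WW domains that binds NF2 and the LATS kinases. It lies on the plus strand at chr5:167718650-167899308 (GRCh37). The 250 bases before its RefSeq transcription start, printed because this was the member that passed the test, lie at chr5:167718400-167718649 on the plus strand and had a GC content of 72.4%.
WWC1: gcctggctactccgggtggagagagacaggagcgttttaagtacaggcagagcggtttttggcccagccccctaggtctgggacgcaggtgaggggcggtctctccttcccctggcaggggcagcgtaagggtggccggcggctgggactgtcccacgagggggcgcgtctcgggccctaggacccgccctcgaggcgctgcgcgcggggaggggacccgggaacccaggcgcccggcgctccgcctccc
The whole 300-base window of the RefSeq promoter table (assembly GRCh38.p14, 250 bases before to 50 after the start, placed on GRCh37 by a unique exact match) held neither GGAATG, the core of the motif bound by the TEAD partners of YAP and TAZ, nor TGANTCA, the motif of AP-1, which 7.71% of the windows in the table held. No match says only that these letters are not in this window.

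WWC1 was at 117, 158 and 137 CPM in siCtrl replicates 1 to 3, from 406, 512 and 544 counts. In siYAP/TAZ it was at 64.1, 78.0 and 48.4 CPM, from 283, 236 and 178 counts. Every depleted library lay below every control library, by 38.6 CPM at the nearest, where the siYAP/TAZ libraries spanned 29.6 CPM and the siCtrl libraries 41.4 CPM. The means were 137 ± 20.7 CPM and 63.5 ± 14.8 CPM (SD, n = 3). The fitted log2 change was -1.11 with a standard error of 0.19 and a 95% interval of -1.54 to -0.68 (edgeR, adjusted p = 0.0231), which puts the depleted level between 34.3% and 62.3% of control. Among the 12510 tested genes WWC1 ranked 113 by p and 185 counting from the most lowered fold change. With the replicate block the log2 fold change was -1.12 (edgeR, adjusted p = 0.00128). The call was lost without siCtrl replicate 3 (adjusted p = 0.119), and likewise when siYAP/TAZ replicate 1 (0.0597) or replicate 3 (0.125) was left out, although the log2 fold change stayed between -1.28 and -0.95 whichever library was left out. YAP1, WWTR1, CCN1, CCN2 and AMOTL2 also lost their calls without siCtrl replicate 3 (0.0703 to 0.135) and without siYAP/TAZ replicate 3 (0.0675 to 0.176). Without siYAP/TAZ replicate 1, WWTR1 (0.0602) and CCN2 (0.0597) lost theirs, while YAP1, CCN1 and AMOTL2 kept theirs. Without siCtrl replicate 2 the value was -0.998 (adjusted p = 0.00745). With the groups taken from the titles it was -0.30 (adjusted p = 0.916), where the silenced gene YAP1 was itself at -0.26 (adjusted p = 0.904). Over the other alternatives the adjusted p of WWC1 ran from 5.0e-05 to 0.125.

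The WWC family has 2 further members with related domain structure, WWC2 and WWC3, named here as paralogs of WWC1. WWC2 was at 106, 94.4 and 102 CPM under siCtrl and 86.3, 85.9 and 79.1 CPM under siYAP/TAZ (log2 fold change -0.27, SE 0.12, edgeR adjusted p = 0.303). WWC3 was at 34.2, 34.6 and 35.9 CPM under siCtrl and 21.1, 24.8 and 29.4 CPM under siYAP/TAZ (log2 fold change -0.48, SE 0.18, adjusted p = 0.206). Neither passed the threshold. Every siYAP/TAZ library lay below every siCtrl library for both, as it did for 11.1% of tested genes, and both were added after their values were seen. The 3 genes together held 273 ± 15.4 CPM under siCtrl and 172 ± 15.9 CPM under siYAP/TAZ. WWC1 supplied 50.1% ± 4.80 of that sum in control cells and 36.5% ± 5.29 in depleted cells (SD, n = 3), with every depleted library (30.9% to 41.3%) below every control library (45.5% to 55.0%). Both the sum and the share contain WWC1, which was followed up because it fell, so they restate that fall and are not a separate result.

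NF2 (Entrez 4771, chr22:29999545-30094587, plus strand) encodes merlin, the membrane-linked tumour suppressor that recruits LATS kinases. It was at 57.7, 46.9 and 58.5 CPM under siCtrl and 47.4, 48.9 and 44.1 CPM under siYAP/TAZ. The groups overlapped through siCtrl replicate 2, the lowest of the control libraries. On the log2 scale the fitted change was -0.22 (95% interval -0.55 to 0.11, edgeR adjusted p = 0.482), and without siCtrl replicate 2 it was -0.31 (adjusted p = 0.185).

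STK3 and STK4, the MST2 and MST1 kinases at the head of the cascade, were both lower in every depleted library without passing the adjusted threshold. STK3 (Entrez 6788, chr8:99383456-99955055, minus strand) was at 101, 110 and 121 CPM under siCtrl and 93.6, 88.3 and 66.9 CPM under siYAP/TAZ. The groups did not overlap, and siYAP/TAZ replicate 3 was the lowest library. This gave a log2 fold change of -0.42 (SE 0.16, 95% interval -0.77 to -0.065), with an unadjusted p of 0.0250 and an adjusted p of 0.215 in edgeR. The adjusted p was 0.100 with the replicate block, the lowest value any alternative gave.

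STK4 (Entrez 6789, chr20:43595135-43708662, plus strand) was at 64.3, 61.7 and 59.8 CPM under siCtrl and 51.5, 46.6 and 53.0 CPM under siYAP/TAZ. Its siCtrl replicates were the tightest of any member, with a coefficient of variation of 3.67% in siCtrl and 6.65% in siYAP/TAZ, and the groups did not overlap. In the fit, its log2 fold change was -0.30 (SE 0.13, edgeR adjusted p = 0.285), and its 95% interval ran from 66.1% to 100.2% of the control level. Added together, STK3 and STK4 held 173 ± 7.52 CPM under siCtrl and 133 ± 12.6 CPM under siYAP/TAZ (SD, n = 3).

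SAV1 (Entrez 60485, chr14:51098776-51135024, minus strand) encodes the scaffold that couples the MST kinases to LATS. It was at 46.8, 85.2 and 47.5 CPM under siCtrl and 46.0, 59.8 and 56.6 CPM under siYAP/TAZ. Replicate 2 was the highest library of each group and the groups overlapped. Its log2 fold change was -0.14 (SE 0.24, 95% interval -0.682 to 0.395, edgeR adjusted p = 0.804), but 0.20 without siCtrl replicate 2 (adjusted p = 0.475), so 1 library set its direction. Exons of SAV1 overlap those of ATL1 on the opposite strand, which had 50 to 96 counts. The use of strand in counting is not stated, so reads of the 2 genes there may not be separated. Exons of STK3, LATS1 and TAOK1 each overlap those of a long noncoding RNA on the opposite strand. Those noncoding RNAs had no counts of their own to compare, so the same limit holds there.

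LATS1 (Entrez 9113, chr6:149979289-150039241, minus strand) and LATS2 (Entrez 26524, chr13:21547175-21635725, minus strand) encode the kinases that phosphorylate YAP and TAZ. LATS1 was at 52.0, 56.5 and 61.6 CPM under siCtrl and 50.3, 42.3 and 48.4 CPM under siYAP/TAZ. The groups did not overlap, but siCtrl replicate 1 and siYAP/TAZ replicate 1 were close to each other. The fitted log2 change was -0.27 (SE 0.15, 95% interval -0.59 to 0.058, edgeR adjusted p = 0.370).

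LATS2 was at 44.5, 62.3 and 49.3 CPM under siCtrl and 32.6, 41.0 and 45.1 CPM under siYAP/TAZ. The groups overlapped by siYAP/TAZ replicate 3, which lay above siCtrl replicate 1, and siCtrl replicate 2 was the highest library. On the log2 scale the fitted change was -0.40 (SE 0.19, 95% interval -0.81 to 0.022, edgeR adjusted p = 0.306), and -0.25 without siCtrl replicate 2 (adjusted p = 0.405), a change 1 library moved by more than 1.5 times. LATS1 and LATS2 together held 109 ± 11.3 CPM under siCtrl and 86.6 ± 6.03 CPM under siYAP/TAZ (SD, n = 3).

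The RefSeq windows of 9 members were searched on both strands for GGAATG, and STK3 was not in the promoter table. The LATS1 window lay inside the annotated span of the gene rather than at its end. GGAATG was present in 1 of 9, LATS2, where 14% of the 35116 windows in the table held it. The 30 bases around the match are shown with the motif in capitals, at chr13:21635699-21635728 (GRCh37, minus strand).
LATS2: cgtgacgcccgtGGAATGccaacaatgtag
Counting the first transcribed base as 1, the LATS2 match covered bases 10 to 15. A match describes the letters only, and binding at these windows was not measured in these libraries.

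MOB1A (Entrez 55233, chr2:74379655-74406025, minus strand) and MOB1B (Entrez 92597, chr4:71768043-71888166, plus strand) encode the near-identical cofactors that LATS kinases bind to become active. MOB1A was at 24.7, 14.5 and 24.6 CPM under siCtrl and 20.6, 24.8 and 24.7 CPM under siYAP/TAZ. The groups overlapped, and siCtrl replicate 2, at 47 counts, was the lowest value of any member in any library. This gave a log2 fold change of 0.13 (SE 0.24, 95% interval -0.402 to 0.658, edgeR adjusted p = 0.824), and -0.08 without siCtrl replicate 2 (adjusted p = 0.828), so its direction again depended on that library. The annotation also lists 2 processed pseudogenes of MOB1A, MOB1AP1 and MOB1AP2, with which its reads could be shared.

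MOB1B was at 34.8, 30.9 and 28.1 CPM under siCtrl and 25.2, 28.8 and 26.1 CPM under siYAP/TAZ. The groups overlapped at siCtrl replicate 3. In the fit, its log2 fold change was -0.23 (SE 0.17, 95% interval -0.61 to 0.15, edgeR adjusted p = 0.515), and -0.15 without siCtrl replicate 1. MOB1B shares exonic sequence with DCK on the same strand, whose counts were 74, 33 and 67 under siCtrl and 65, 22 and 18 under siYAP/TAZ, which leaves the value uncertain where reads fell in the shared part. MOB1A and MOB1B together held 52.5 ± 7.05 CPM and 50.1 ± 3.94 CPM (SD, n = 3).

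TAOK1 (Entrez 57551, chr17:27717381-27878921, plus strand) encodes the TAO kinase that acts upstream of the MST kinases. It was at 183, 209 and 193 CPM under siCtrl and 189, 212 and 229 CPM under siYAP/TAZ, from 636 to 843 counts. The groups overlapped. Its log2 fold change was 0.11 (SE 0.13, edgeR adjusted p = 0.712), and the 95% interval of 88.1% to 132% of control was the narrowest of the 10 on the log2 scale. Single libraries moved this small value, to 0.0642 and 0.16 on leaving out siCtrl replicate 1 or 2, and to 0.18 and 0.0452 on leaving out siYAP/TAZ replicate 1 or 3. Summed with TAOK2 and TAOK3, the TAO kinases held 425 ± 42.0 CPM under siCtrl and 476 ± 51.8 CPM under siYAP/TAZ (SD, n = 3).

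**Figure D2:**
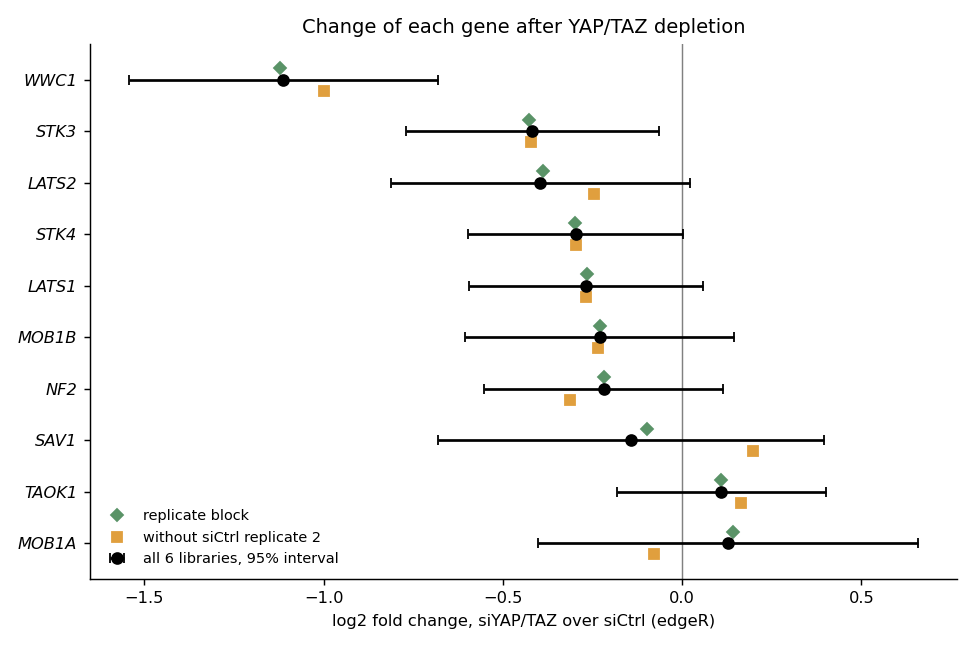
Fitted log2 fold change of each gene (siYAP/TAZ over siCtrl), with black points and bars for all 6 libraries and their 95% intervals, green diamonds for the fit with the replicate block and yellow squares for the fit without siCtrl replicate 2. The intervals of WWC1 and STK3 lay below 0, and SAV1 and MOB1A changed sign without siCtrl replicate 2.

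The 3 paralog pairs of the core were compared for balance, as the share of a pair's counts taken by 1 gene, with an exact two-sided permutation test over the libraries that could not give a p below 0.1. STK4 took 38.8%, 35.9% and 33.1% of the STK3 and STK4 counts under siCtrl and 35.5%, 34.6% and 44.2% in siYAP/TAZ. The 2 groups overlapped, with siYAP/TAZ replicate 3 the highest. The means were 35.9% ± 2.86 and 38.1% ± 5.33 (SD, n = 3), a difference of 2.14 percentage points (exact permutation p = 0.7, adjusted over the 3 pairs 0.7), and -0.929 points without siYAP/TAZ replicate 3.

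LATS2 took 46.1%, 52.5% and 44.4% of the LATS1 and LATS2 counts under siCtrl and 39.3%, 49.2% and 48.3% in siYAP/TAZ. The groups overlapped. The exact 95% binomial interval lay below 50% in siCtrl replicate 3 (39.7% to 49.2%) and siYAP/TAZ replicate 1 (34.3% to 44.6%) and included 50% in the other 4 libraries. The means were 47.7% ± 4.23 and 45.6% ± 5.44 (SD, n = 3; exact permutation p = 0.7, adjusted 0.7), and the difference of -2.08 points turned to 0.314 without siCtrl replicate 2 and to 1.05 without siYAP/TAZ replicate 1. MOB1B took 58.5%, 68.0% and 53.3% of the MOB1A and MOB1B counts under siCtrl and 55.0%, 53.7% and 51.3% in siYAP/TAZ. MOB1B held more than 50% of its pair's counts in all 6 libraries. The exact 95% binomial interval lay above 50% in siCtrl replicates 1 (51.4% to 65.2%) and 2 (59.8% to 75.5%) and included 50% in the other 4 libraries. Reads shared with other genes, named above for MOB1A and MOB1B, could also enter this share. The MOB1B share was lower under siYAP/TAZ in 3 of 3 same-numbered pairs. The difference of -6.61 points did not pass the test over unpaired libraries (59.9% ± 7.46 against 53.3% ± 1.84, SD, n = 3; exact permutation p = 0.3, adjusted 0.7), and it was -2.56 points without siCtrl replicate 2 and -9.91 points without siCtrl replicate 3. An exact permutation within same-numbered pairs, added after the data were seen, gave p = 0.25 for MOB1B, the smallest that 3 pairs allow, 0.75 for LATS2 and 1 for STK4.

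**Figure D3:**
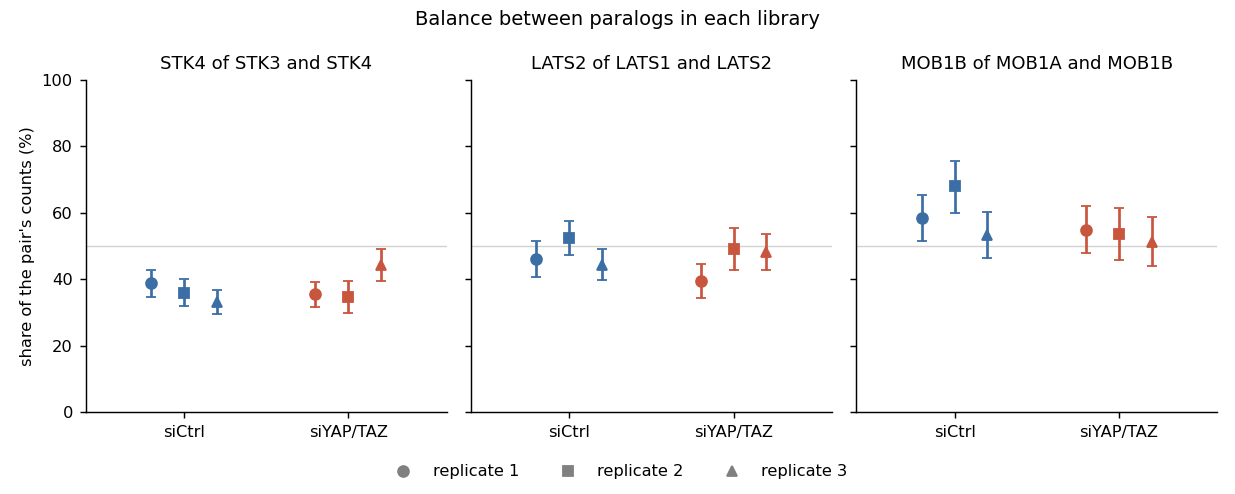
Share of the counts of 3 paralog pairs taken by STK4, LATS2 and MOB1B in each library, on an axis from 0 to 100%, with exact binomial 95% intervals that cover counting error only and a grey line at 50%. The groups overlapped in each pair, and siYAP/TAZ replicate 3 had the highest STK4 share at 44.2%.

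The rest of the pathway was read from 6 lists of 52 genes, of which 49 passed the low-count filter (MAP4K1, MAP4K2 and RASSF2 did not). Of these 49, 1 fell and 1 rose past the threshold, where 1.22% of tested genes were lower and 0.743% higher. Fitted changes lay below 0 for 26 and above 0 for 23, where 50.1% of tested genes were below 0, and the median log2 fold change was -0.023. With the replicate block 1 fell and 2 rose, against 5.44% and 4.66% of tested genes. The same shares over all tested genes stand beside the counts of each list below.

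Among the LIM proteins and other inhibitors of LATS (6 genes, all tested), 1 fell and 0 rose, against 1.22% and 0.743% of tested genes. The gene that fell was AJUBA, a LIM protein that binds and restrains LATS kinases. It was at 39.6, 42.9 and 48.3 CPM under siCtrl and 19.3, 18.5 and 21.8 CPM under siYAP/TAZ, with no overlap. The fitted log2 change was -1.13 (SE 0.17, edgeR adjusted p = 0.0138, and 0.00195 with the replicate block). The call was lost without siCtrl replicate 3 (adjusted p = 0.0978), and likewise when siYAP/TAZ replicate 2 (0.0606) or replicate 3 (0.0797) was left out, and with the groups of the titles the log2 fold change was -0.36 (0.905).

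Among the MAP4K and TAO kinases other than TAOK1, 7 of 9 were tested, and 1 rose and 0 fell, against 0.743% and 1.22% of tested genes. TNIK, a MAP4K-family kinase also known from Wnt signalling, was at 37.9, 45.4 and 44.5 CPM under siCtrl and 71.6, 87.9 and 83.0 CPM under siYAP/TAZ. All depleted libraries were above all control libraries. On the log2 scale the fitted change was 0.92 (SE 0.15, edgeR adjusted p = 0.0176, and 0.00169 with the replicate block). The call was lost without siCtrl replicate 1 (adjusted p = 0.0644), or 3 (0.104), and when siYAP/TAZ replicate 2 (0.0733) or 3 (0.12) was left out, and with the groups of the titles the log2 fold change was 0.24 (0.92).

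Of 6 NDR kinases and MOB proteins related to LATS and MOB1, 0 passed in either direction in the unpaired main fit, against 1.22% (lower) and 0.743% (higher) of tested genes. All 6 had fitted changes above 0, where 50.1% of tested genes were below 0. Blocking on the replicate number called 1 of them higher, against 4.66% of tested genes. MOB2, which binds NDR kinases, was at 91.3, 149 and 84.9 CPM under siCtrl and 172, 226 and 194 CPM under siYAP/TAZ. The groups did not overlap, and replicate 2 was the highest library in each. This gave a log2 fold change of 0.87 (SE 0.22, edgeR adjusted p = 0.0778). MOB2 passed the threshold with the replicate block (log2 fold change 0.90, adjusted p = 0.00229), in DESeq2 (0.86, 0.00881) and without siCtrl replicate 2 (1.17, 0.00166). MOB3C was at 4 to 16 counts per library, with a log2 fold change of 0.52 (adjusted p = 0.635) that ran from 0.25 without siCtrl replicate 1 to 1.08 without siCtrl replicate 2.

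The other lists had no gene past the threshold in either direction, in edgeR or in DESeq2. In edgeR 1.22% of tested genes were lower and 0.743% higher, and in DESeq2 2.47% and 1.88%. At an unadjusted p under 0.05 in edgeR, the scaffold list had 2 lower genes (WWC3 and FRMD6) and the others 0, against 9.27% of tested genes. Of 8 tested scaffolds and RASSF proteins, which include tumour suppressors that bind the MST kinases, the largest fitted changes were those of RASSF4 (log2 fold change 1.15, SE 0.80, from 1 to 31 counts per library, adjusted p = 0.493) and RASSF1 (-0.48, adjusted p = 0.491, between -0.72 and -0.27 with 1 library left out). RASSF4 had 25 counts in siCtrl replicate 2 and 1 and 4 in the other siCtrl libraries, and without that replicate its log2 fold change was 3.21 (adjusted p = 0.015). Of 18 genes of STRIPAK, the phosphatase complex that counteracts the MST kinases, 10 lay below 0 and 8 above, where 50.1% of tested genes were below 0. STRIP2, a scaffold of the complex, had the largest fitted change (-0.39, adjusted p = 0.373). Of 4 genes for YAP and TAZ turnover, which prime and ubiquitinate the phosphorylated proteins, BTRC (0.17, adjusted p = 0.616) and CSNK1D (0.15, adjusted p = 0.682) were the furthest from 0 with all libraries. BTRC was at 0.0774 without siYAP/TAZ replicate 2, and CSNK1D at 0.0259 without siCtrl replicate 3 and 0.33 without siCtrl replicate 2.

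**Figure D4:**
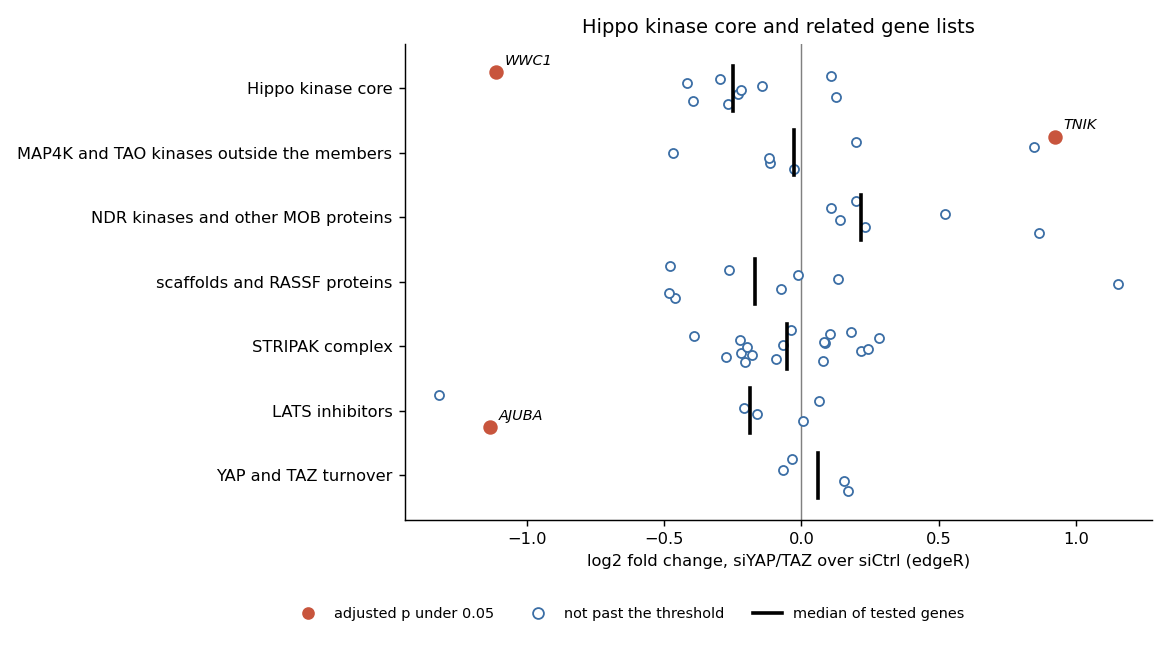
Fitted log2 fold change (siYAP/TAZ over siCtrl) of the 10 core genes and of the tested genes in 6 related lists, 1 point per gene, with filled red points for an adjusted p under 0.05 and black bars for list medians. WWC1 and AJUBA were the points past the threshold below 0 and TNIK the point above, and the median of the core was -0.25.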

How the data were processed

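MCF10A 3′ mRNA-Seq libraries (3 siCtrl, 3 siYAP/TAZ) were analysed from the table of raw counts per Entrez gene that the authors deposited, in which no values had been normalised. The submitters' processing notes list cutadapt 4.2, Bowtie2 2.3.5.1 and hg19. The gene annotation and the use of strand are not given in the sources used here. All 6 value columns were used, and column names matched the description labels, from which groups and replicate numbers were taken.

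Differences between groups were tested in edgeR 4.0.16 under R 4.3.3 by quasi-likelihood (F test). Genes with few counts were removed by the tool's default rule, libraries were scaled by TMM, and the model held group alone. Adjustment over the 12510 genes left followed Benjamini-Hochberg, at a threshold of 0.05. The steps were checked on simulated counts with 200 changed genes. Those counts were drawn independently for each library, so the check cannot decide between a paired and an unpaired fit. Same-numbered libraries deviated together (correlations of deviations from group means 0.428, 0.355 and 0.129 for numbers 1 to 3). The number was therefore treated as pairing the libraries in the replicate block and in the paired share permutation. The main fit and the planned share tests left this pairing out, so their p-values do not take it into account. The origin of the pairing is not labelled. Paralog shares were tested by exact permutation (scipy 1.17.1). As alternatives the tests were repeated in DESeq2 1.42.0, with RLE scaling or library size alone, without the filter or with a minimum mean of 50 counts, with robust estimation, the replicate block, groups by title, both disputed libraries left out, and each library left out.

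The members and lists were chosen with earlier results of these data known. All 10 members were described in every library. Of the other lists, each gene past the threshold was named, and otherwise the 2 with the largest change. The results of 1 such gene and of 1 motif search are not reported here. WWC2 and WWC3 were added after their values were seen. Symbols came from the RefSeq gene table of GRCh38.p14, used for names only (23308 of 23459 IDs matched). Gene positions were taken from GENCODE lifted to GRCh37, the coordinates of hg19.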

Additional observations from a re-analysis of the deposited data

How the results depend on the processing

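The 10 core genes kept their direction and side of the threshold in 139 of 150 recomputed log2 fold changes over 15 alternatives. WWC1 lost its call in 4 of them and a direction changed in 7. With the groups of the titles 0 members were lower at the adjusted threshold, and SAV1 (0.28), LATS2 (0.049) and MOB1A (-0.30) changed direction, as did BTRC (-0.0186), the LATS2 share (0.0953 points) and the MOB1B share (2.94 points). With both disputed libraries left out SAV1 was at 0.12 and MOB1A at -0.12. Leaving out each library in turn gave 0 to 1 members lower, -0.291 to 0.197 for SAV1, -0.079 to 0.247 for MOB1A, -0.929 to 3.9 points for the STK4 share and -3.88 to 1.05 points for the LATS2 share. The cause of these changes was not tested. Over all tested genes 245 passed the threshold, and 556 did without the filter, 578 in DESeq2, 1263 with the replicate block, 1183 without the disputed libraries, 0 in edgeR with the groups of the titles (464 at an unadjusted p under 0.05), and 16 to 1579 with 1 library left out. The replicate block, a paired analysis, changed no call among the members, and added calls for MOB2, for 4 epithelial markers and for PECAM1.

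Members had 47 to 843 counts per library. The 95% intervals given for each member show the precision that 3 libraries per group allowed.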
